A study of Mus musculus with 12 samples.

Results

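Laminins are the large cross-shaped glycoproteins of basement membranes, each made of an α, a β and a γ chain that are assembled inside the cell before secretion. They hold the sheets on which endothelial cells, pericytes, meningeal fibroblasts and the endfeet of radial glia rest, and they bind integrins and dystroglycan on the cell surface. The γ1 chain is shared by most laminins, the α4 chain is a chain of vessel walls, the α2 chain is known from muscle, pericytes and glia, and loss of laminin at the pial surface is a known cause of cortical malformation. The 8 chain genes described here, Lama1, Lama2, Lama4, Lama5, Lamb1, Lamb2, Lamc1 and Lamc3, were matched by symbol among the 55335 genes listed, and all 8 were present. The family was selected on the Lama4 levels of excitatory neurons, which differed between genotypes in these same libraries. The excitatory comparison is therefore given as a description with no test for any of the 8 genes.

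Nuclei were isolated from the forebrain of mice on postnatal day 1 and profiled by split-pool single-nucleus RNA sequencing, with 1 animal per library. Of the animals, 8 were wild type (WT; libraries 1 to 5 male and 6 to 8 female) and 4 were heterozygous (Het; libraries 1 to 3 male and 4 female) for MYT1L S710fsX, a germline frameshift allele of the neuronal transcription factor gene Myt1l that is present in every cell of the animal. The strain label is the same in both groups, and the labels name no other allele and no treatment for either group. Myt1l UMIs (unique molecular identifiers, each counting 1 captured RNA molecule) do not read the frameshift and so do not check the genotype labels. In excitatory nuclei Myt1l lay between 1414 and 1770 CPM (UMIs of the gene per 1000000 UMIs of the same nuclei), with a median of 1648, in the WT libraries and between 1807 and 2087, with a median of 1957, in the Het libraries. Outside them it lay between 1204 and 1545 in WT and between 1315 and 1480 in Het.

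Of 126684 barcodes, 93947 were kept after filters on UMIs, genes, mitochondrial share and doublets, 54755 from WT and 39192 from Het animals, with a median of 1906 UMIs. No barcode was shared between libraries. The laminin genes were kept out of the genes used for clustering. Of 39 clusters, 27 were named by marker lists and fell into 18 classes holding 74.7% of the kept nuclei. Of the listed markers of a class, 9 of 12 in deep-layer excitatory neurons and 4 of 8 in intermediate progenitors stood over 2-fold above the other nuclei, and in each of the other 16 classes all or all but 1 did. The same lists named the clusters, so these counts are no separate check of the names. In cluster 25, which holds 1289 of the L6b/subplate nuclei, 3 of 7 markers were raised by at least 0.5 in log2. The unnamed clusters hold further neurons, several with Neurod6 and Neurod2, so the 3 excitatory classes (upper-layer, deep-layer and L6b/subplate excitatory neurons, ExN, 27427 nuclei) are not all excitatory nuclei of the tissue. The vascular classes were small, with 1240 endothelial, 320 mural (pericyte and smooth muscle) and 3342 fibroblast nuclei. A level is given for a library only where it had at least 10 nuclei of the class, which leaves 6 of 8 WT libraries for mural nuclei and 4 of 8 for choroid and ependymal nuclei.

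The stretch upstream of the start site is shown for 3 of the 4 members matched in the RefSeq promoter table (GRCm38.p6), which has entries for Lama2, Lama5, Lamb1 and Lamb2. They are shown because the family was taken up in a Myt1l mutant and because the genes differ in where they are used. Capitals mark AAGTTT, the core that the zinc fingers of the MYT1 family bind, and the GC box GGGCGG, each on either strand and not overlapping one another. Each run holds the 250 bases before the start, 5′ to 3′ on the strand of the gene.
Lama2, chr10:27616943-27617192, minus strand: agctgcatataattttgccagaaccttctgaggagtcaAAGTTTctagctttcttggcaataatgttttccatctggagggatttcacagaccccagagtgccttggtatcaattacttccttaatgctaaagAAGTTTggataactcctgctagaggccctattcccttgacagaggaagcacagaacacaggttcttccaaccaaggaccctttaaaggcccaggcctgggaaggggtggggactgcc
Lama5, chr2:180225860-180226109, minus strand: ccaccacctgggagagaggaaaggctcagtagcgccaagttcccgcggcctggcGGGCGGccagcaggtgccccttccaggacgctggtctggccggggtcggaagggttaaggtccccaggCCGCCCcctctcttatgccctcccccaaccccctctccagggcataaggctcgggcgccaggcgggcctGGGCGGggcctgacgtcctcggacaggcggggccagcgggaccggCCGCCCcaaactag
Lamb1, chr12:31265043-31265292, plus strand: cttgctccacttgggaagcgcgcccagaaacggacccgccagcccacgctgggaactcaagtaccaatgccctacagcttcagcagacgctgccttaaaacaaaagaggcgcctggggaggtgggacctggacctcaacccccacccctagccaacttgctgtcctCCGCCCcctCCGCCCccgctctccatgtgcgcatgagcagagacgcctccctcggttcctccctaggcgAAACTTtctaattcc
AAGTTT had 2 matches before Lama2, 1 before Lamb1, 1 before Lamb2 and 0 before Lama5. Of 27025 promoters of that length, 12.8% held it. The GC box had 4 matches before Lama5, 2 before Lamb1, 0 before Lama2 and 0 before Lamb2, and 32.9% of all promoters held it. A match is a run of letters and not a measured binding site. The starts that the table uses for Lama2, Lamb1 and Lamb2 lie inside the spans that GENCODE gives these genes, so that the Lama2 run lies within the annotated gene and the end of the Lamb1 run overlaps it.

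Among the α chains, Lama4 (ENSMUSG00000019846.11, chr10:38965515-39110188, plus strand, GRCm38) was highest in endothelial nuclei. Across the 8 WT libraries it ranged there from 968 to 1563 CPM with a median of 1151, and the mean was 1216 ± 204 (SD, n = 8). Mural nuclei followed at 719 ± 200 (n = 6) and fibroblast nuclei at 585 ± 52.6 (n = 8), and these 2 lay within each other's spread, while the endothelial level lay above both by more than the SDs. Astroglia held 115 ± 36.2 CPM, oligodendrocyte-lineage nuclei 80.6 ± 10.9 and MGE interneurons 34.1 ± 8.40, whereas D2 striatal neurons were the lowest of the 18 classes at 2.02 ± 2.85. Of all Lama4 UMIs in kept nuclei, 63.4% lay in endothelial, mural and fibroblast nuclei, which made up 5.22% of the nuclei. A further 4.64% lay in an unnamed cluster of 586 nuclei, 0.624% of the total, in which Sox10 was found in 22.5% of nuclei. By library its share of the Lama4 UMIs ran from 0.0742% to 23.6%, and it held 1 to 125 nuclei. Lama4 there was 555 ± 111 CPM in the 5 WT libraries with enough nuclei. Sox10, a factor of oligodendrocytes and of glia that arise from the neural crest, does not name the cluster.

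**Figure D1:**
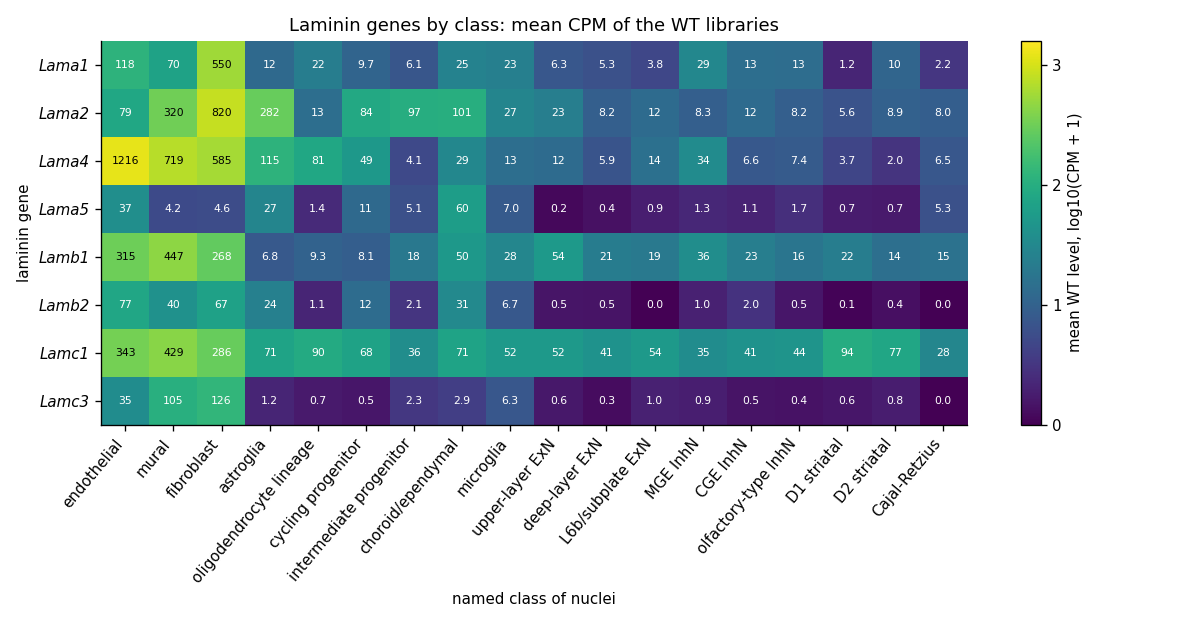
Mean level of each laminin gene (rows) in each named class (columns) over the WT libraries with 10 or more nuclei, in CPM as printed in each cell and as log10(CPM + 1) in the color scale. Endothelial, mural and fibroblast nuclei hold the highest levels of 7 of the 8 genes, Lama4 peaks at 1216 CPM in endothelial nuclei, and Lama5 is highest in choroid and ependymal nuclei.

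Lama1 (ENSMUSG00000032796.8, chr17:67697259-67822647, plus strand), the α chain of early embryonic and pial basement membranes, was highest in fibroblasts and differed between the 2 fibroblast clusters. In fibroblast nuclei it ranged from 227 to 864 CPM over the WT libraries, with a median of 573, and the next class, endothelial, held 118 ± 79.1 CPM (n = 8). The larger fibroblast cluster (2591 nuclei, led by Slc6a13, Ranbp3l and Ptgds) held 726 ± 285 CPM in WT and 886 ± 301 in Het, whereas the smaller one (751 nuclei, led by Bnc2, Slc47a1 and Tbx15) held 7.84 ± 10.6 and 8.67 ± 2.83. Lamb1 and Lamc3 followed the same split, at 357 ± 24.8 against 14.1 ± 15.9 CPM for Lamb1 and 169 ± 76.0 against 0.472 ± 1.34 for Lamc3 in the WT libraries. Lama2, Lama4 and Lamc1 were present in both clusters, and Lamb2 was 57.6 CPM in the larger and 87.3 in the smaller cluster over all libraries pooled. Every WT library lay above 340 CPM of Lama1 in the larger cluster, and none exceeded 29.4 in the smaller one. These levels are not tested, since the clusters were built from other genes of the same nuclei.

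Lama2 (ENSMUSG00000019899.17, chr10:26980036-27619758, minus strand in GENCODE M21, where the identifier has another version), the α chain whose loss causes a congenital muscular dystrophy, was found in fibroblasts, mural nuclei and astroglia. Fibroblasts held 820 ± 162 CPM and mural nuclei 320 ± 115, and astroglia followed at 282 ± 64.4, so that the mural and astroglial levels lay within each other's spread. Astroglia held 23.4% of all Lama2 UMIs and fibroblasts 40.5%. The 2 astroglial clusters differed for Lama2 and Lama4 in opposite directions. In the cluster led by Veph1 and Hgf (3267 nuclei) Lama2 was 426 ± 52.1 CPM and Lama4 24.5 ± 15.7 in WT, and in the cluster led by Tnc and Fabp7 (3918 nuclei) Lama2 was 179 ± 67.4 and Lama4 175 ± 36.6. Progenitors carried Lama2 as well, with 97.3 ± 51.4 CPM in intermediate progenitors and 84.0 ± 24.7 in cycling progenitors, while deep-layer ExN held 8.23 ± 2.20. The level of intermediate progenitors came from few nuclei. A Lama2 UMI was found in 2.47% to 8.51% of them over the WT libraries, against 19.9% to 36.6% of astroglia.

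Lama5 (ENSMUSG00000015647.9, chr2:180176373-180225859, minus strand), the α chain of epithelial and mature vascular basement membranes, was low everywhere and had only 731 UMIs in all kept nuclei. It was the one member whose own highest class lay outside the vessels and meninges, at 59.6 ± 19.0 CPM in choroid and ependymal nuclei (n = 4), 37.5 ± 19.0 in endothelial nuclei and 27.3 ± 5.64 in astroglia, so that each lay within the spread of the next, while the choroid and ependymal level lay above the astroglial one by more than the SDs. Within the first class the choroid cluster led by Htr2c and Ttr (241 nuclei) held 120 CPM over all libraries and the ciliated cluster led by Dnah12 (480 nuclei) held 34.7. Neurons held at most 5.28 CPM, in Cajal-Retzius cells.

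Of the β chains, Lamb1 (ENSMUSG00000002900.16, chr12:31265234-31329644, plus strand) was shared by vessels and neurons. Mural nuclei held 447 ± 246 CPM (n = 6), endothelial nuclei 315 ± 78.1 and fibroblasts 268 ± 29.5, which all lay within one another's spread, and the next class, upper-layer ExN, held 53.5 ± 4.57. Because neurons are many, neurons and intermediate progenitors of the named classes still held 38.0% of the Lamb1 UMIs, with 25.4% in the excitatory classes. The 3 vascular and fibroblast classes together held 27.4%. The unnamed clusters, which hold further neurons among other nuclei, held a larger share than these 3 classes. Astroglia were the lowest class at 6.81 ± 4.14 CPM. Among neurons the highest levels were found in small clusters, with 257 ± 123 CPM in a cluster of 196 MGE-class nuclei led by Sfta3-ps and St18 (4 WT libraries) and 129 ± 73.7 in an unnamed cluster of 614 nuclei led by Tmem132d, with Eomes and Cdhr1 among its leading genes (7 WT libraries). Lamb2 (ENSMUSG00000052911.9, chr9:108479736-108490530, plus strand), the β chain of mature vessels and synapses, had 1162 UMIs and was highest in endothelium (77.0 ± 45.3 CPM), followed by fibroblasts (67.3 ± 18.9), mural nuclei (40.5 ± 37.8), choroid and ependymal nuclei (30.6 ± 8.18, n = 4), astroglia (23.6 ± 6.35) and cycling progenitors (12.5 ± 7.84). In L6b/subplate ExN and Cajal-Retzius cells no Lamb2 UMI was counted in any library, which allows a level of up to 0.473 and 1.19 CPM in the pooled nuclei (3 counts, counting error only). The 2 β chains thus had opposite orders in neurons and astroglia: Lamb1 was 53.5 CPM in upper-layer ExN and 6.81 in astroglia, and Lamb2 was 0.511 and 23.6.

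Of the γ chains, Lamc1 (ENSMUSG00000026478.14, chr1:153218922-153332786, minus strand) was found in every class. It was 429 ± 196 CPM in mural, 343 ± 65.8 in endothelial and 286 ± 26.1 in fibroblast nuclei, and between 28.1 and 94.3 CPM in the other 15 classes, of which each lay within the spread of the next. Neurons and intermediate progenitors of the named classes held 41.5% of its UMIs. The unnamed cluster of 586 nuclei held 323 ± 78.1 CPM, a level like those of the vascular classes. Lamc3 (ENSMUSG00000026840.14, chr2:31887291-31946539, plus strand), a γ chain needed for the pial surface of the cortex, was the most restricted member, with 86.0% of its 1046 UMIs in the 3 vascular and fibroblast classes. It was 126 ± 57.7 CPM in fibroblasts, 105 ± 62.9 in mural nuclei and 34.7 ± 12.6 in endothelial nuclei, and at most 6.29 elsewhere.

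**Figure D2:**
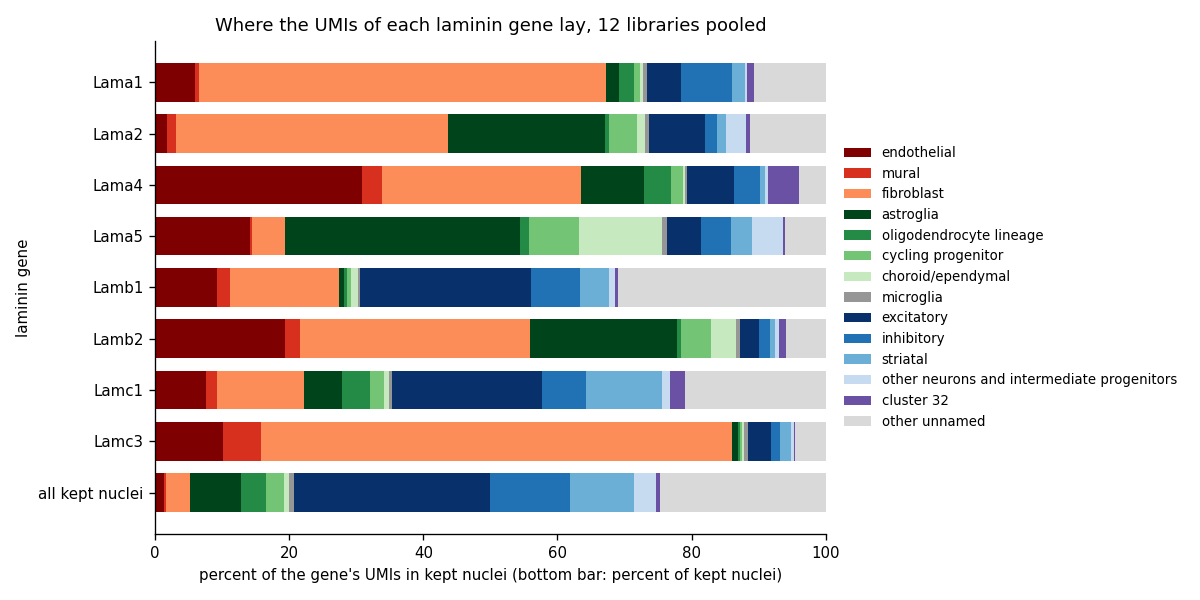
Share of each laminin gene's UMIs that lay in each source (percent, horizontal axis, 12 libraries pooled), with the share of kept nuclei in the bottom bar. Endothelial, mural and fibroblast nuclei were 5.22% of nuclei and held 86.0% of Lamc3, 67.2% of Lama1 and 63.4% of Lama4 UMIs but 22.2% of Lamc1 and 27.4% of Lamb1 UMIs.

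Markers of one vascular class were also counted in the others, and single-nucleus data cannot tell a nucleus that expresses a gene from one that carries free RNA or a fragment of a neighboring cell. Of the endothelial nuclei, 90.0% held a UMI of at least 1 of the 12 mural markers, whose summed level was between 2733 and 4907 CPM over the libraries against 7768 to 14207 in mural nuclei, and no mural marker was at 0. In mural nuclei the 13 endothelial markers summed to 314 to 763 CPM against 9522 to 13941 in endothelial nuclei, and in fibroblasts to 204 to 348. Of the fibroblast nuclei, 94.0% held a UMI of at least 1 of the 12 astroglial markers, which summed to 2348 to 2981 CPM there and to 482 to 2264 in mural nuclei, against 16067 to 22781 in astroglia. Astroglia held 18.8 to 65.5 CPM of the endothelial, 282 to 362 of the mural and 96.6 to 175 of the fibroblast markers. The part of free RNA in the laminin levels of these classes was not tested.

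By the pattern over the 18 classes (Pearson correlation of log2(CPM + 1) over classes, 11689 genes compared, a description in which all points share libraries), the genes most like each member were the following. Plat, Nkd1 and St5 were the most like Lama4 (r = 0.957, 0.946 and 0.931), Piezo2, Col3a1 and Gm44148 the most like Lama1 (0.905, 0.898 and 0.891), and Slc7a2, Ddr2 and Ppara the most like Lama2 (0.955, 0.944 and 0.938). Msl1, Unc119b and Myo1e followed Lama5 (0.911, 0.907 and 0.903), and Acsl1, Slc19a1 and Lrrc32 followed Lamb1 (0.930, 0.927 and 0.906). Wwtr1 and Serpinh1 followed Lamb2 (0.974 and 0.972), and Col7a1, Anpep and Vtn followed Lamc3 (0.979, 0.978 and 0.977). For Lamc1 they were Gm38009, Col4a2 and Tbx3os1 (0.949, 0.931 and 0.927). Gm38009 lies within Lamc1 on the same strand in the annotation, so the reads of the 2 genes may be shared. Overlapping genes are also annotated for Lama2 (1 on its strand and 5 on the other), Lama5 (Mir7005) and Lamc3 (Gm13441 on the other strand), and the sources used here do not say if strand entered the counts.

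To ask whether laminin expression outside the excitatory classes differed between genotypes, UMIs were summed by library and class and tested with edgeR's quasi-likelihood test, with Benjamini-Hochberg adjustment over all genes tested in a class. A pair of gene and class was called at an adjusted p under 0.05 where the log2 difference was no smaller than 0.2 in size. Of 43 laminin pairs that passed the filter on low counts, in 12 classes, 0 were called, where 0.00469% of all 85342 pairs of gene and class were. Of the 43, 1 (2.33%) had an unadjusted p under 0.05, beside 5.32% of all pairs, and DESeq2 likewise called 0, with 1 unadjusted p under 0.05. Over all nuclei outside the excitatory classes, with all 8 genes tested, 0 were called by either tool, 0 had an unadjusted p under 0.05, beside 9.87% of all genes, and 0% of the 19171 genes tested were called by edgeR. These 66520 nuclei include the unnamed clusters with Neurod6 and Neurod2, such as cluster 5 (5308 nuclei, Neurod6 in 23.3%). The set is therefore not free of excitatory neurons, the kind of nuclei whose Lama4 level chose the family. The log2 fold changes of the 8 genes there lay between -0.17 for Lamc3 and 0.20 for Lamb2. Their median was 0.14, against 0.00011 over all genes tested, and over the 43 pairs by class it was 0.032, against -0.0020 over all pairs. The pooled levels also follow the class shares. Endothelial nuclei were 1.15% ± 0.708 of kept nuclei in WT and 1.55% ± 0.751 in Het, and 0.457% to 2.49% over the libraries. Class mix and expression cannot be told apart in the pooled sums.

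In endothelial nuclei the Lama4 levels of the Het libraries were 1296, 1631, 1137 and 1253 CPM, and those of WT lay between 968 and 1563 with a median of 1151. The groups overlapped, and the log2 fold change of Het over WT was 0.15 ± 0.15 (SE) with an adjusted p of 1 by edgeR. Fibroblast Lama4 was 534, 544, 542 and 622 CPM in Het and 527 to 668 in WT, with a median of 586, for a log2 fold change of -0.07 ± 0.10. In mural nuclei it was 522, 503, 699 and 590 CPM in Het and 497 to 1064, with a median of 685, in WT, for -0.27 ± 0.25 in a fit that also holds WT 6 and WT 8, with 5 and 4 mural nuclei, and in astroglia 78.2 to 112 in Het and 64.4 to 189 in WT for -0.25 ± 0.18. All of these groups overlapped. In MGE interneurons Lama4 was 22.5 to 39.0 CPM in Het and 23.5 to 49.3 in WT, and its log2 fold change was -0.09 ± 0.18. The other vascular and fibroblast members behaved alike, with log2 fold changes from -0.34 ± 0.28 for Lamc3 in fibroblasts to 0.27 ± 0.31 for Lama1 in fibroblasts, and Lama5 in astroglia was -0.40 ± 0.21 (adjusted p = 0.72 by edgeR), at 12.5 to 24.9 CPM in Het and 19.1 to 34.5 in WT.

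**Figure D3:**
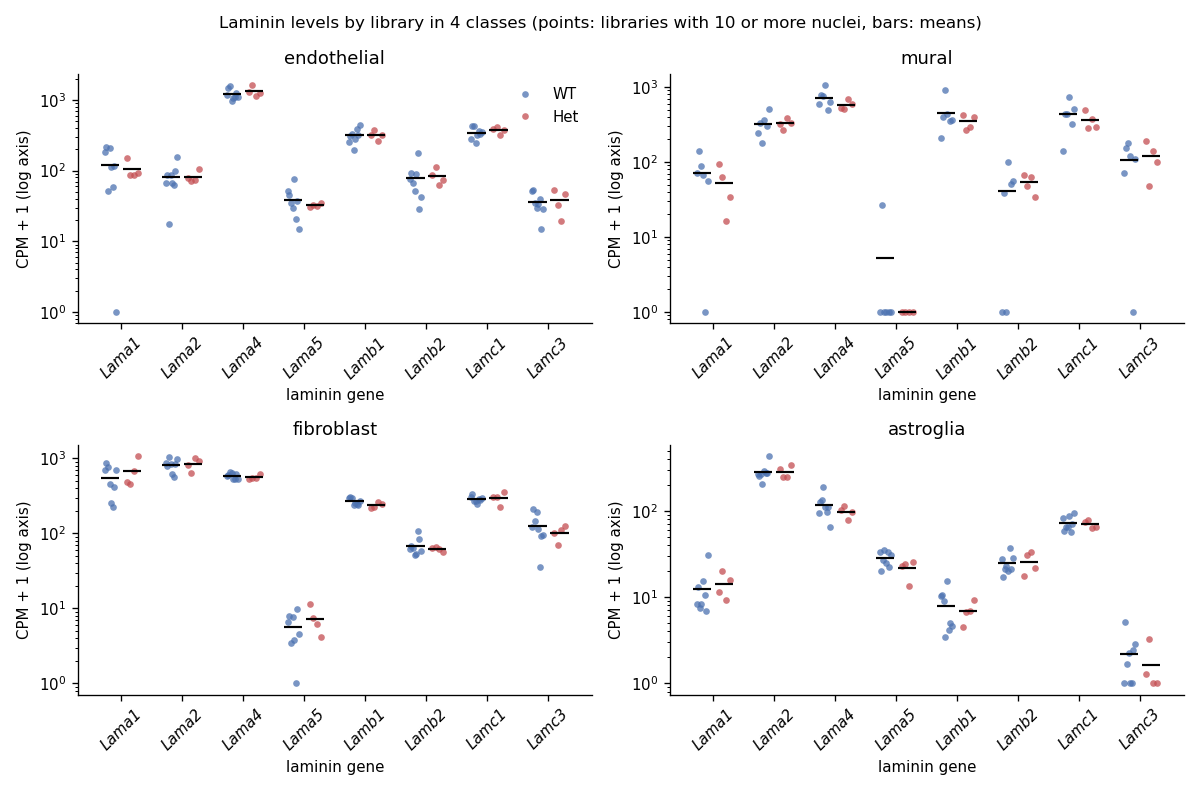
Level of each laminin gene in endothelial, mural, fibroblast and astroglial nuclei of each library (CPM + 1, logarithmic axis), with WT in blue, Het in red, 1 point per library with 10 or more nuclei and black bars at the means. Lama4 in endothelial nuclei spans 968 to 1563 CPM in WT and 1137 to 1631 in Het, and points at 1 on the axis are libraries with no UMI.

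The pair with the smallest p was Lama2 in cycling progenitors. Its level was 121, 93.5, 219 and 179 CPM in Het and 51.1 to 113 in WT, with a median of 90.4. Het 1, Het 3 and Het 4 lay above every WT library and Het 2 lay within the WT range. The log2 fold change was 0.92 ± 0.22 with an adjusted p of 0.70 by edgeR, and without Het 3 it was 0.66 ± 0.23. The adjusted p was between 0.21 and 1 under every alternative except the one with no filter on low counts, where it was 2.5e-05. The class holds 2 clusters, and the one with Lama2 (cluster 16) made up 89.9% of its nuclei in WT and 93.9% in Het. Within that cluster Lama2 was 96.3 ± 27.9 CPM in WT and 166 ± 60.8 in Het. With no filter on low counts Lama2 was also called in microglia, where it rested on 66.2 UMIs in all and was 27.4 ± 22.9 CPM in WT and 96.0 ± 41.4 in Het.

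Laminin receptors and other basement membrane proteins, a list of 48 genes, likewise gave no call. Of 290 pairs of partner gene and class that passed the filter, covering 40 of the 48 genes, 0 were called by edgeR, 10 were nominally higher in Het and 8 lower at an unadjusted p under 0.05, together 6.21% beside 5.32% for all genes and classes, and the median log2 fold change was -0.00047, beside -0.0020 over all pairs. DESeq2 called 0 as well, with 10 unadjusted p under 0.05. The genes named from the list here were chosen after their values were seen. In endothelial nuclei of WT animals the type IV collagens Col4a1 (1069 ± 205 CPM) and Col4a2 (949 ± 168), the linker nidogen Nid1 (511 ± 86.1) and perlecan, Hspg2 (296 ± 52.7), stood beside the laminins, and in astroglia the laminin-binding integrin chain Itga6 was 247 ± 48.7. Among chain genes of laminins known from epithelia, Lama3 was 27.8 ± 9.80 CPM in MGE interneurons and 21.2 ± 22.3 in endothelial nuclei, and Lamb3 was at most 3.05 in the 7 sets of nuclei for which levels of the list were computed.

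In excitatory nuclei Lama4 was low but differed between the genotypes, which is the contrast that brought up the family. The Het libraries held 16.7, 19.9, 19.1 and 16.6 CPM, and the WT libraries 7.59 to 13.9 with a median of 9.68. Every Het library lay above every WT library, and the difference of the mean log2(CPM + 1) was 0.81. A Lama4 UMI was found in 2.18% ± 0.354 of WT and 3.69% ± 0.305 of Het excitatory nuclei, and 825 UMIs carried the result, between 17.5 and 139 per library. In D2 striatal neurons, the lowest class, 0.532% of nuclei held one, at a median of 1693 UMIs per nucleus against 2254 in deep-layer ExN and 2498 in cluster 4, the upper-layer cluster with most Lama4. The other members in excitatory nuclei were 15.9 ± 1.69 CPM in WT and 20.1 ± 3.00 in Het for Lama2, 5.66 ± 1.73 and 4.67 ± 0.733 for Lama1, 38.3 ± 6.37 and 41.3 ± 11.7 for Lamb1, and 47.6 ± 4.35 and 49.4 ± 3.83 for Lamc1, with overlapping libraries for each. Lama5, Lamb2 and Lamc3 stayed below 1.5 CPM in every library.

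Lama4 was not spread evenly over excitatory neurons. Of the 7 clusters in the 3 classes, 2 upper-layer clusters and 1 subplate cluster held most of it. In cluster 4 (5800 nuclei, led by Rorb, a layer 4 gene, with Gpc5 and Inhba) Lama4 was 24.9, 29.5, 27.4 and 45.5 CPM in Het and 9.41 to 39.3 in WT with a median of 18.4. In cluster 6 (4364 nuclei, led by Ccbe1, with the upper-layer gene Cux2 among its leading genes) it was 21.8, 26.2, 22.2 and 28.2 in Het and 9.60 to 29.3 in WT with a median of 14.5. The subplate cluster 26 (963 nuclei, led by Cdh18, Pcsk5 and Pappa2) held 26.2 ± 15.4 CPM in WT and 32.7 ± 13.4 in Het. In the deep-layer cluster 0 the level was 5.87 ± 2.58 in WT and 7.64 ± 3.24 in Het, and in clusters 2, 23 and 25 it was 4.37 ± 2.31, 3.10 ± 2.48 and 4.40 ± 3.67 in WT and 6.30 ± 2.25, 9.79 ± 4.67 and 6.64 ± 4.67 in Het. The log2 difference of cluster 23, 1.62, was the largest of the 7, on 22.5 Lama4 UMIs in all. The Het mean was above the WT mean in all 7 clusters, and within each of the 7 the libraries of the groups overlapped.

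**Figure D4:**
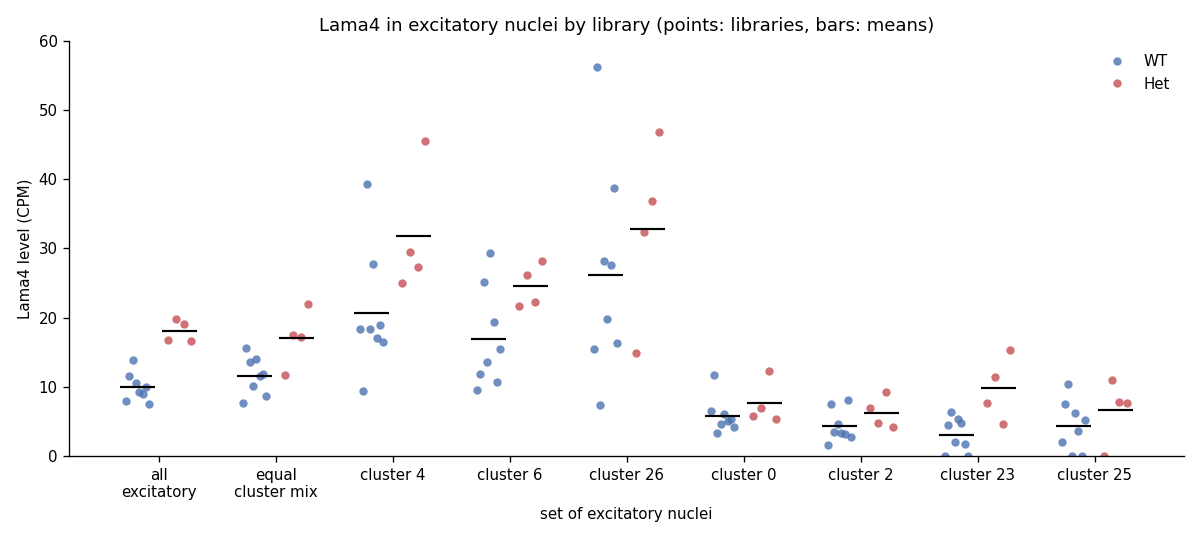
Lama4 level in CPM (vertical axis) by library in all excitatory nuclei, with the 7 clusters weighted equally, and in each cluster, with WT in blue, Het in red and black bars at the means. The 4 Het libraries lie at 16.6 CPM or above, over every WT library, for all excitatory nuclei, and the groups overlap in each cluster and with equal weights.

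In 3 of the 4 Het animals, all male, clusters 4 and 6 made up a larger share of excitatory nuclei than in any WT library. Het 4, the only Het female, lay within the WT range. The cause of this difference in mix was not tested. Clusters 4 and 6 together made up 56.3%, 54.3%, 48.2% and 22.6% of excitatory nuclei in Het 1 to 4 and 12.6% to 44.4%, with a median of 30.2%, in WT. With each cluster weighted equally in every library the Lama4 level was 11.7, 17.5, 17.2 and 21.9 CPM in Het and 7.67 to 15.6 in WT, the groups overlapped through Het 1, and the log2 difference fell from 0.81 to 0.51. Het 4, with the lowest share of clusters 4 and 6 among the Het animals, had the highest level under equal weights. Outside clusters 4 and 6 the levels were 6.68, 8.95, 12.2 and 10.1 in Het and 4.46 to 12.4 in WT. Both of these measures were added after the cluster levels had been seen.

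Since the Lama4 level of endothelial nuclei was far above that of excitatory nuclei (1216 ± 204 against 10.0 ± 2.05 CPM in WT), RNA of vascular cells in excitatory nuclei was measured with the 13 endothelial, 12 mural and 12 fibroblast markers, none of which is a laminin. The summed level of the 3 lists was 196, 249, 304 and 174 CPM in Het and 151 to 202, with a median of 165, in WT. The groups overlapped, the difference of the means was 60.3 CPM, and the exact two-sided permutation test over libraries gave p = 0.014 (the smallest p that 495 splits allow is 0.0020). Without Het 3 the difference was 35.7 CPM (exact permutation p = 0.042). Gucy1a1, a mural marker that excitatory neurons also held, made up most of the mean of this sum in both genotypes, at 67.2 to 127 CPM in WT, with a median of 109, and 130.0, 168, 156 and 98.8 in Het. Its excitatory level was 16.7% of its mural level in WT, while that of the other mural marker Pdgfrb was 0.126%. Ebf1, which is also a striatal marker, was 8.05 ± 2.64 and 19.2 ± 7.11. Gucy1a1 was among the leading genes of the D2 striatal cluster, and Ebf1 among those of the D1 striatal cluster. D1 nuclei were 4.39% ± 1.88 of kept nuclei in WT and 7.26% ± 2.13 in Het, and D2 nuclei 3.00% ± 1.38 and 4.57% ± 1.26. Whether striatal RNA entered the marker sum was not tested. Without Gucy1a1, Ebf1 and Cspg4 (the last 2 are in other marker lists too, and the 3 were set aside after their values were seen) the sum was 55.6, 56.9, 118 and 55.4 CPM in Het and 45.6 to 75.1 in WT, with a difference of 15.1 (exact permutation p = 0.20), and without Het 3 the difference was -0.502. The endothelial list alone was 24.9, 27.3, 48.9 and 24.5 CPM in Het and 21.3 to 36.7 in WT, with a difference of 4.93 (exact permutation p = 0.34), and without Het 3 it was -0.894. The mural list alone was 153, 205, 209 and 129 CPM in Het and 93.0 to 152 in WT and differed by 48.4 (exact permutation p = 0.018), and by 36.7 without Het 3 (p = 0.067 by the same exact test). The fibroblast list alone differed by 6.97 CPM (exact permutation p = 0.19) and by -0.043 without Het 3, and the mural and fibroblast lists together by 55.4 (exact permutation p = 0.014) and by 36.6 without Het 3 (p = 0.055 by the same exact test). Gucy1a1 differed by 33.3 CPM (exact permutation p = 0.044) and by 27.3 without Het 3 (p = 0.12 by the same exact test). Ebf1 differed by 11.2 CPM (exact permutation p = 0.0081) and by 8.91 without Het 3 (p = 0.024 by the same exact test). These 8 comparisons overlap in their genes and were not adjusted for one another. Het 3 stood above the other libraries for the endothelial and fibroblast lists, while its Lama4 level of 19.1 CPM lay among those of the other Het libraries.

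The ratio of the excitatory to the vascular level sets Lama4 beside the markers. The excitatory Lama4 levels used here are those that chose the family, so its place among the markers is a description and not a test. Over the 13 endothelial markers the excitatory level was 0.108% to 0.809% of the endothelial level in WT and 0.160% to 0.687% in Het, whereas for Lama4 it was 0.768% in WT and 1.39% in Het. Of these 13, Pecam1 alone had a ratio above that of Lama4 in WT (0.809%), and none did in Het. Against the mural level Lama4 was 1.51% in WT and 2.73% in Het, and of the 12 mural markers Gucy1a1 alone was above it, in both genotypes (16.7% and 21.9%). Against the fibroblast level Lama4 was 1.73% in WT and 3.13% in Het. Of the 12 fibroblast markers Lum (2.12%) and Fbln2 (21.9%) were above it in WT and Fbln2 (22.2%) in Het, and both were low in fibroblasts themselves, at 17.3 and 13.0 CPM. Had Lama4 followed the median endothelial marker of each library, its excitatory level would have been 1.69 to 3.66 CPM in WT and 2.48 to 4.55 in Het. Adding the levels given in the same way by the median mural and median fibroblast marker brought this to 3.34 to 7.19 CPM in WT and to 5.60, 5.74, 10.8 and 5.89 in Het. The measured Lama4 level lay above that sum in all 12 libraries, by 2.05 to 8.91 CPM in WT and by 11.1, 14.1, 8.22 and 10.7 in Het, so that the remainder of Het 3 alone lay within the WT range.

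**Figure D5:**
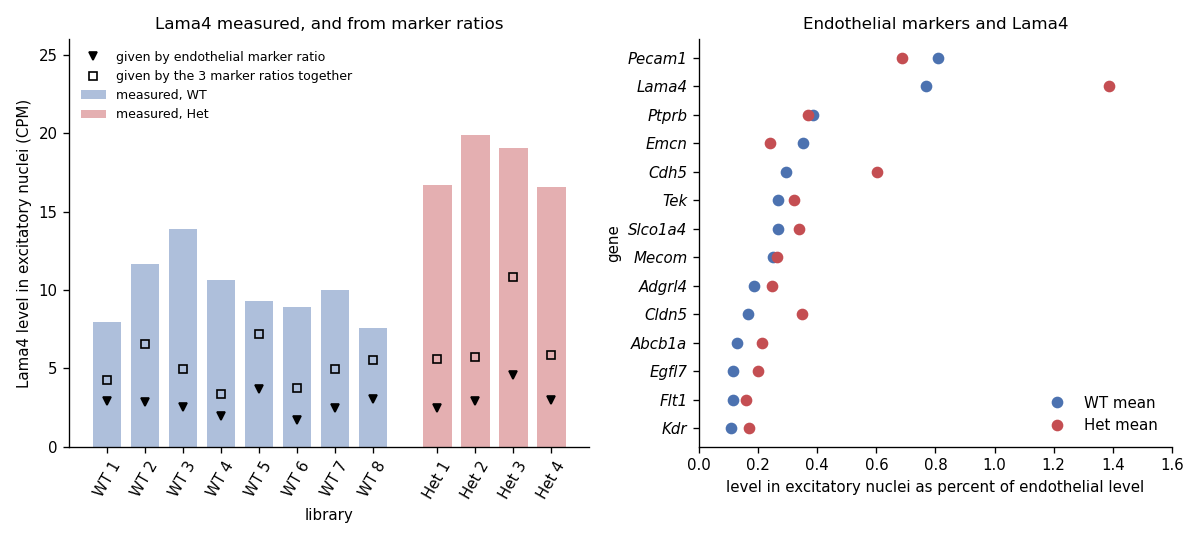
Left, measured Lama4 level in excitatory nuclei of each library (bars, CPM) with the level that the median endothelial marker ratio would give (triangles) and that the endothelial, mural and fibroblast ratios would give together (squares). Right, level in excitatory nuclei as percent of the endothelial level for the 13 endothelial markers and Lama4 (means of the WT and Het libraries). Lama4 is above the squares in all 12 libraries, and its percentage in Het, 1.39%, is above those of the 13 markers. In WT its percentage, 0.768%, is below that of Pecam1, 0.809%. The excitatory Lama4 levels are those that chose the family.

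Nuclei with no vascular UMI were examined directly. Of the excitatory nuclei, 67.6% had no UMI of any of the 37 markers, and in these Lama4 was 14.2, 14.7, 18.1 and 14.5 CPM in Het and 5.75 to 12.3, with a median of 9.07, in WT. The groups did not overlap and the log2 difference was 0.76, and in deep-layer nuclei alone it was 0.16. These nuclei are a part of those whose Lama4 level chose the family, so the values are a description and not a separate test. With Gucy1a1, Ebf1 and Cspg4 set aside, 86.2% of nuclei had no marker UMI, the levels were 15.9, 19.9, 19.7 and 15.9 in Het and 6.78 to 13.3 in WT, and the difference was 0.84. Within cluster 4 of these nuclei Lama4 was 23.7 to 42.4 CPM in Het and 11.6 to 33.8 in WT. Within cluster 6 it was 19.9 to 24.6 in Het and 6.36 to 30.1 in WT, and in both clusters the groups overlapped. In nuclei with a UMI of the 3 full lists Lama4 was 12.6 ± 4.38 CPM in WT and 22.1 ± 3.08 in Het. Of the 777 excitatory nuclei with a Lama4 UMI, 10.9% also held an endothelial marker UMI, against 7.06% of those without. For the lists without Gucy1a1, Ebf1 and Cspg4 it was 18.7% against 13.7%. By these lists it was 18.4% against 14.5% within cluster 4 and 21.3% against 13.6% within cluster 6. Over all excitatory nuclei those with Lama4 were also deeper, with a median of 2607 UMIs against 2056. Whether depth accounts for the shared marker UMIs was not tested. Free RNA too sparse to leave a marker UMI in the same nucleus is not removed by choosing nuclei without one. In the 6 other named classes with a WT mean under 10 CPM of Lama4, where free RNA of the same libraries would also be counted, the groups overlapped in each. The level was 5.92 ± 2.29 CPM in Het and 3.67 ± 2.60 in WT for D1 striatal neurons, 2.87 ± 2.58 and 2.02 ± 2.85 for D2 striatal neurons, and 7.58 ± 2.63 and 4.06 ± 6.94 for intermediate progenitors. It was 13.8 ± 14.5 CPM in Het and 6.49 ± 6.16 in WT for Cajal-Retzius cells, 5.13 ± 4.06 and 6.61 ± 4.80 for CGE interneurons, and 6.08 ± 3.37 and 7.40 ± 3.01 for olfactory-type interneurons. The Het mean was thus above the WT mean in 4 of these 6 classes, with 18.0 to 68.7 Lama4 UMIs per class over all libraries. Microglia, with 35.0 Lama4 UMIs, held 49.7 ± 26.7 CPM in Het and 13.2 ± 18.0 in WT, again with overlapping libraries. Few microglial nuclei carried these UMIs: the 13 of Het 1 lay in 8.05% of 87 nuclei, and the 4 of Het 3 in 1.32% of 76. Sparc, a secreted vascular protein gene, was 7.18, 12.2, 38.9 and 7.91 CPM in Het excitatory nuclei and 5.53 to 12.5 in WT, so that only Het 3 stood apart. Hspg2, which codes for perlecan, was 3.63, 2.92, 4.52 and 3.60 CPM in Het excitatory nuclei and 1.32 to 2.98 in WT, and there Het 1, Het 3 and Het 4 lay above every WT library.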

How the data were processed

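Per the labels and the study's methods, the authors processed reads with ScaleRna (build mm10) and later used Seurat 4.3.0. They deposited, for each of the 12 libraries, a matrix of expected counts (UMIs per gene and barcode, of which 6.58% to 6.88% of entries were not whole), with no normalization. Gene identifiers were matched to GENCODE M21 (54587 of 55335, by versioned identifier).

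Barcodes were retained (98111) where 300 to 3000 genes and 800 to 6000 UMIs were detected, with a mitochondrial share of 1% or less and a log gene to log UMI ratio of at least 0.9. The 5% of barcodes per library with the most simulated doublets among their neighbors were marked, of which 4164 were removed. Library totals over all barcodes were 15439429 to 40784144 UMIs, and 9694965 to 24177045 in kept nuclei. Nuclei were clustered with scanpy 1.11.5 and leidenalg 0.10.2 (3000 variable genes, 50 components, 20 neighbors, resolution 1.5) without laminin, mitochondrial and sex-linked genes, and named from marker lists. Thresholds for naming were chosen once the clusters were known. Sums by library and class were rounded and tested with edgeR 4.0.16 (quasi-likelihood, genotype only, filterByExpr), and with DESeq2 1.42.0 as an alternative. On simulated data edgeR recovered 75.5% of 200 genes changed 1 unit of log2 in endothelial sums (4554 genes), 75.5% in astroglial sums (9428 genes) and 80.5% over nuclei outside the excitatory classes (19171 genes). Of the genes called there, 2.58%, 7.36% and 4.17% in turn were unchanged ones. With 200 genes changed at once the adjusted threshold is easier to pass than for a lone gene. The recovered shares are therefore not the chance of calling a single laminin gene. CPM is UMIs per 1000000 UMIs of the same nuclei, and differences outside edgeR are on the log2(CPM + 1) scale. Each library is 1 animal. Marker sums were compared by exact two-sided permutation over libraries. Equal cluster weights, the marker lists without 3 genes, and levels outside clusters 4 and 6 were added after the data had been seen. The members, gene lists and tests were chosen with earlier results of these data known. The text names the 8 members, partner genes called in any class (none), the 3 genes most like each member and Myt1l, except that some genes are not reported here.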

Additional observations from a re-analysis of the deposited data

Results flagged for a closer look

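Among 40 groups of 4 to 8 libraries compared for a library apart (members with a WT mean of at least 100 CPM in a class, excitatory Lama4 and the vascular marker sum), 4 held one by Dixon's criterion, which chance gives in about 1 of 20. Lama1 in endothelial nuclei was 152 CPM in Het 1, and the nearest of the other Het libraries held 93.1. Lama2 in astroglia was 429 CPM in WT 8, with the nearest WT library at 286, and in the Tnc-led cluster WT 8 held 344 CPM. Lama4 in fibroblasts was 622 CPM in Het 4, with the nearest Het library at 544. Lamb1 in mural nuclei was 924 CPM in WT 3, which rested on 16 nuclei, with the nearest at 442.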

How the results depend on the processing

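With no filter on low counts 2 laminin pairs (Lama2 in cycling progenitors and in microglia) and 1 partner pair (Col15a1 in D1 striatal neurons, log2 fold change 1.03, adjusted p = 0.023 by edgeR) were called, against 0 in the reported fits. Every other alternative run (DESeq2, a sex term, the replicate block, each library left out, doublets kept, and for classes the resolutions 0.8 and 2.5) called 0, and over nuclei outside the excitatory classes no alternative called a member. With the replicate block the excitatory Lama4 difference was 0.78 as an edgeR log2 fold change. The reported 0.81 is a difference of mean log2(CPM + 1), so the measures differ. With the block 0 laminin pairs were called. Only WT libraries that share sex and number with a Het library inform the genotype difference in a block fit, which limits what it can detect. The replicate numbers were not used as pairs in the reported fits. Deviations of same-numbered libraries of the 2 genotypes correlated from -0.20 to 0.26. The highest value was that of WT 6 and Het 4, and WT 6 was the best WT match of Het 4. For each of the other Het libraries another WT library matched better. With so few libraries these correlations cannot decide whether the numbers mark pairs. The excitatory Lama4 difference was 0.76 to 0.87 with each library left out, 0.34 in deep-layer nuclei alone, 0.51 with equal cluster weights and 0.51 outside clusters 4 and 6. In nuclei without a vascular marker UMI it was 0.69 to 0.83 with each library left out, and 0.16 in deep-layer nuclei alone, where the reported value was 0.76. The vascular marker sum differed by 26.7 CPM in deep-layer nuclei alone (exact permutation p = 0.11), by 4.93 with the endothelial list alone, by 15.1 without Gucy1a1, Ebf1 and Cspg4, and by 35.7 to 79.1 with each library left out. The cause of these shifts was not tested. Depth limits the low members most. Lama5, Lamb2 and Lamc3 had 731, 1162 and 1046 UMIs in all, mural nuclei numbered 4 to 49 per library, and with 4 Het libraries a difference that misses the threshold does not show equal levels.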
